A study of Mus musculus with 28 samples.

Results

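Among 28 RNA libraries of the mouse hippocampus, the level of Ttr ran from 27.1 to 5533 CPM (counts scaled to the same total in every library), a 204-fold range. Ttr encodes transthyretin, the carrier of thyroid hormone and retinol that the choroid plexus secretes into the cerebrospinal fluid. The libraries described here are the 10 with the highest and the 10 with the lowest Ttr CPM, 20 of the 28. They were selected on this value alone, each library's Ttr count divided by its total count and scaled to CPM. Because Ttr chose the libraries, its own difference between them is a description and was not tested. Genes of the same epithelium can be expected to go with it, and their differences are likewise given as a description of what the high Ttr libraries contained.

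The choroid plexus is a folded sheet of cuboidal epithelium on a vascular stroma that hangs in the brain ventricles and makes cerebrospinal fluid. Its cells are joined by tight junctions and carry ion pumps, bicarbonate and chloride transporters and aquaporin 1 towards the ventricle. In the lateral ventricle its root lies along the fimbria, against the hippocampus, and the thalamus lies on the other side of the same fissure. In bulk tissue, fewer cells of a type and less RNA per cell cannot be told apart.

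All libraries came from hippocampi of female mice and were stranded messenger RNA libraries. Mice of the 3xTg line, an Alzheimer's disease model with human APP and tau transgenes driven by a neuronal Thy1 cassette and a mutant presenilin 1 knock-in, made up 4 groups of 4 libraries. They had received NAVI (ABT263, navitoclax, an inhibitor of BCL-2 proteins that protect cells from apoptosis), DQ (the kinase inhibitor dasatinib with the flavonoid quercetin), or a vehicle labelled VehN or VehD. The wild-type (WT) mice, whose genotype is labelled BL6/129, made up 3 groups of 4 that had received NAVI, DQ or a vehicle labelled Veh. The sources used here give no ages or doses, and no label states that each library is a separate animal, so p-values measure the spread between these libraries.

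Total counts ran from 32080861 to 54019519 per library, and the totals of the high Ttr libraries (median 42558376) overlapped those of the low ones (median 45444772). App, counted together with the transgene where reads match, was at 1456 to 1790 CPM in the 12 WT libraries and at 2447 to 3732 CPM in the 16 3xTg libraries, so that the genotype labels held. Defining genes of the hippocampus were present in every high and low library: Prox1, the dentate granule cell factor, at 36.9 to 74.9 CPM, and Wfs1, a CA1 pyramidal cell gene, at 77.2 to 175 CPM. Of 24062 genes in the table, 16369 passed the low count filter, and 16368 of these besides Ttr were tested.

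In the 10 high libraries Ttr ran from 3031 to 5533 CPM with a median of 3753, and in the 10 low libraries from 27.1 to 163 CPM with a median of 77.5. The medians differed 48.4-fold. Just outside the classes lay a 3xTg DQ library (replicate 4) at 2700 CPM below the high class and a WT NAVI library (replicate 4) at 178 CPM above the low class. The levels fell apart into 14 libraries above 2000 CPM and 13 under 250 CPM, with 1 library, 3xTg DQ replicate 2, in between at 620 CPM.

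High and low libraries occurred side by side in most groups of the study. The WT vehicle libraries had Ttr at 4046, 3031, 157 and 47.2 CPM. The 3xTg NAVI libraries had it at 3490, 3400, 90.0 and 38.3 CPM. These 2 groups each held 2 high and 2 low libraries and none in between. The WT DQ libraries were at 4886, 3838, 234 and 101 CPM, and the 3xTg VehD libraries at 4844, 2602, 28.2 and 27.1 CPM. The 3xTg DQ libraries were at 2700, 620, 163 and 64.9 CPM. In the WT NAVI group 1 library stood at 3313 CPM and the others at 188, 178 and 112 CPM. The 3xTg VehN group differed from the rest in that its 4 libraries, at 5533, 3667, 2325 and 2085 CPM, all lay above 2000 CPM. By genotype the high class held 5 3xTg and 5 WT libraries and the low class 6 and 4.

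**Figure D1:**
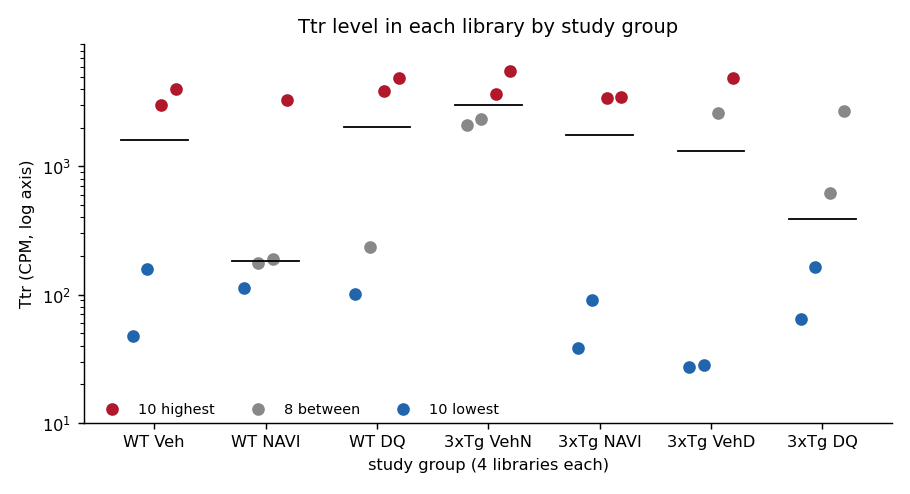
Ttr level of each of the 28 libraries in CPM on a log axis, by study group (4 libraries each); point colour gives the class (10 highest, 8 between, 10 lowest) and the line is the median of the group. Libraries above 2000 CPM and under 250 CPM occur together in 6 of the 7 groups, and the 4 3xTg VehN libraries all lie above 2000 CPM.

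The 3 other markers of the epithelium separated the classes without overlap. Folr1, the folate receptor that carries folate into the cerebrospinal fluid (chromosome 7, 101858331 to 101870788, GRCm38), was at 19.9 to 43.8 CPM in the high libraries (median 27.9) and at 0.836 to 2.24 CPM in the low ones (median 1.40). Kl, the anti-ageing hormone and FGF23 co-receptor klotho (chromosome 5, 150952607 to 150993817), was at 109 to 198 CPM (median 138) against 26.8 to 35.1 CPM (median 30.0). Clic6, an intracellular chloride channel protein (chromosome 16, 92498147 to 92541241), was at 53.5 to 105 CPM (median 66.9) against 2.84 to 13.99 CPM (median 7.03). These 3 markers did not choose the libraries, but they were picked with earlier results of these data known. Their log2 levels followed Ttr over the 28 libraries (Pearson's r 0.966 to 0.985), so that their separation is a description and no independent support for the label. When the libraries were ranked by Folr1 instead, 9 of the 10 high and 8 of the 10 low libraries were the same.

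The sequence in front of the genes is given first, because the members of the epithelium lists described below were higher together. Otx2, the homeodomain factor of the choroid plexus, binds a core written TAATC, and that core was searched on both strands (as TAATC or GATTA) in the 250 bases before each start in the RefSeq promoter table of GRCm38.p6. It was present in 19.8% of all 32851 promoters and in 15 of 83 promoters of 58 epithelium genes, 18.1%. The longer form TAATCC was in 6.25% of all promoters and in 6 of those 83. The share among the epithelium genes was thus close to that of all promoters. Of the 10 genes with the largest rises between the classes, 8 had entries. Their 9 promoters held the core in 3 and TAATCC in 0. The upstream sequences of 5 genes that differed strongly between the classes are shown here, 5′ to 3′ on the gene's strand, with matches to the core in capitals; a match is a description of these letters and not a binding site.
Kl: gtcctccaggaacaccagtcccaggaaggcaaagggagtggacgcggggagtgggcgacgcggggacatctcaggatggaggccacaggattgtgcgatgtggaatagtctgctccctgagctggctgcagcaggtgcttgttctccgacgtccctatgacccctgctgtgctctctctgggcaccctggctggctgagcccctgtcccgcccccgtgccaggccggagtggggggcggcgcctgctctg
Kcne2: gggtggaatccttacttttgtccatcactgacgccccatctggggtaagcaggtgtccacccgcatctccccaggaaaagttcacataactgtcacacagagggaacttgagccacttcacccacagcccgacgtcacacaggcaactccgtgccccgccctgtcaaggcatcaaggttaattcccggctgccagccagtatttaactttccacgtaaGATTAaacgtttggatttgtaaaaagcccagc
Aqp1: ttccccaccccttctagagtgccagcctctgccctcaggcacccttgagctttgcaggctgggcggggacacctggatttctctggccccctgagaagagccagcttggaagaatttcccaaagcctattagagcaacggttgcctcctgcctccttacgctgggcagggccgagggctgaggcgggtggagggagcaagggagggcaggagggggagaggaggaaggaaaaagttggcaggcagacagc
F5: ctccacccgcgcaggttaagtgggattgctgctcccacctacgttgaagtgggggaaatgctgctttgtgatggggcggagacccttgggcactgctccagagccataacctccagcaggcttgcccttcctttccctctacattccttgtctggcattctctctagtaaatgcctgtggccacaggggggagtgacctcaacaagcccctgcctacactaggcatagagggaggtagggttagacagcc
Kcnj13: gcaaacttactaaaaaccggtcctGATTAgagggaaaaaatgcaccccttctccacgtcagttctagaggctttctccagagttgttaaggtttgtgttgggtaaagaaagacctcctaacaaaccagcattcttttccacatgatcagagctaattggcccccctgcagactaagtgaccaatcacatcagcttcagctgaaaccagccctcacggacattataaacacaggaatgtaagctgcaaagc
Their windows were chr5:150952357-150952606 on the plus strand for Kl, chr16:92292139-92292388 on the plus strand for Kcne2, chr6:55336049-55336298 on the plus strand for Aqp1, chr1:164151585-164151834 on the plus strand for F5 and chr1:87394730-87394979 on the minus strand for Kcnj13. Kcne2 and Kcnj13 each held 1 match, and Kl, Aqp1 and F5 held 0.

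With genotype as a covariate, 978 of the 16368 genes (5.98%) differed between high and low libraries at an adjusted p under 0.05 in edgeR's quasi-likelihood test. Of these, 737 (4.5%) were higher in the high Ttr libraries and 241 (1.47%) were lower. The number of lower genes was 92 to 434 when single libraries were left out, 92 without 3xTg VehN replicate 1 and 434 without 3xTg NAVI replicate 4. With the GC trend as covariate 1038 genes were higher and 1270 lower, and with treatment group as covariate 423 and 18. Changes of at least 2-fold numbered 251 among the higher genes and 3 among the lower. In 192 genes (1.17%) every high library lay above every low library, and in 0 genes did every high library lie below. The median difference of all tested genes was -0.01 on the log2 scale.

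The gene lists of the choroid plexus epithelium held 75 tested members besides Ttr. Of these, 60 were higher in the high libraries, 0 were lower, and 46 separated the classes fully. Over all genes, 4.5% were higher, 1.47% were lower and 1.17% lay higher without overlap. The same shares stand beside the counts of each list below. The median log2 difference of the 75 was 1.58, against -0.01 over all genes. Together with Ttr these genes took 1.11 to 1.71% of all counts in the high libraries and 0.559 to 0.654% in the low ones.

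The epithelium list of mainly secreted and carrier proteins had the largest median difference, 2.14 on the log2 scale, with 16 of 18 tested members higher. It also held genes of other roles, such as Prlr and Steap1. Enpp2, which encodes autotaxin, the enzyme that makes lysophosphatidic acid in the cerebrospinal fluid, was at 1705 to 3004 CPM in the high libraries (median 1993) and at 291 to 458 CPM in the low ones (median 367), a log2 difference of 2.57 (SE 0.113). F5, coagulation factor V, was at 39.2 to 79.5 CPM (median 54.5) against 1.86 to 6.43 CPM (median 2.54), a log2 difference of 4.08 (SE 0.212). Neither gene overlapped between the classes. The same held for 1500015O10Rik, which encodes augurin (log2 3.84, SE 0.179), for the metalloreductase gene Steap1 (4.15, SE 0.207) and for the prolactin receptor gene Prlr (2.79, SE 0.141). Igf2, an insulin-like growth factor that the choroid plexus and meninges release, was at 180 to 343 CPM (median 239.9) against 29.4 to 151 CPM (median 48.2). Its binding partner Igfbp2 was at 25.7 to 55.0 CPM (median 36.9) against 7.30 to 19.2 CPM (median 11.7). The log2 differences of this growth factor pair were 1.89 (SE 0.273) and 1.59 (SE 0.166), and both separated the classes. The BMP and Wnt antagonist gene Sostdc1 (2.84), the protease inhibitor gene Wfdc2 (4.29) and Ace, the angiotensin-converting enzyme gene (2.47), were higher too. Cst3 (cystatin C), which astrocytes and microglia also make, had medians of 776 and 765 CPM, a log2 difference of 0.00 (SE 0.0662). Trf (transferrin), which oligodendrocytes also make, had a log2 difference of 0.25 (SE 0.102) and overlapping levels.

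Transporters and channels were higher in 24 of 30 tested members, with a median log2 difference of 1.17. The largest difference of the list was that of Slc4a5, an electrogenic sodium bicarbonate cotransporter of the ventricular membrane (chromosome 6, 83207580 to 83304945). It was at 19.2 to 39.4 CPM in the high libraries (median 25.2) and at 0.0904 to 1.19 CPM in the low ones (median 0.600), a log2 difference of 5.39 (SE 0.260). Kcne2, a potassium channel subunit gene (chromosome 16, 92292389 to 92298133), was at 13.6 to 29.6 CPM (median 17.6) against 0.212 to 0.981 CPM (median 0.492), a log2 difference of 5.11 (SE 0.207). Aqp1, the water channel of the ventricular membrane (chromosome 6, 55336299 to 55348555), was at 14.6 to 28.7 CPM (median 18.5) against 0.382 to 1.25 CPM (median 0.731), a log2 difference of 4.68 (SE 0.196). In each of these genes the lowest high library had more than 10 times the level of the highest low library. Kcnj13, the inward rectifier Kir7.1, differed by 4.04 (SE 0.325), Folr1 by 4.33 (SE 0.181), Clic6 by 3.11 (SE 0.239) and Kl by 2.24 (SE 0.0907). The list members Trpm3, Slc12a2 and Atp1b1, which other brain cells use as well, differed less. The part of those cells was not tested. Trpm3, a cation channel gene, differed by 1.23 (SE 0.0897), and Slc12a2, the sodium potassium chloride cotransporter NKCC1, by 0.49 (SE 0.0830) with overlapping classes. Atp1b1, a sodium pump subunit gene abundant in neurons, had medians of 2187 and 2239 CPM and was not past the threshold (-0.08, SE 0.0310).

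Regulators of the epithelium and other genes listed with them were higher in 10 of 12 tested members, with a median log2 difference of 1.35. Otx2, which specifies the choroid plexus and maintains its identity (chromosome 14, 48656781 to 48667644), was at 14.01 to 28.9 CPM in the high libraries (median 16.4) and at 0.698 to 4.33 CPM in the low ones (median 2.15), a log2 difference of 2.92 (SE 0.232). Lmx1a, a roof plate homeodomain gene, differed by 2.38 (SE 0.193), Rdh5, a retinol dehydrogenase gene, by 2.49 (SE 0.161), and Prr32, for which no role is given here, by 3.20 (SE 0.299). The serotonin receptor gene Htr2c, which neurons also express, differed by 0.68 (SE 0.0940), from a median of 62.5 CPM in the low to 106 CPM in the high libraries. Foxj1, the master regulator of motile cilia, was not past the threshold, with medians of 9.08 and 5.65 CPM and overlapping levels (0.58, SE 0.183).

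Junction, keratin and membrane genes were higher in 10 of 15 tested members, with a median log2 difference of 1.06. Cldn2, which encodes the paracellular water and cation pore claudin 2, was at 21.2 to 40.5 CPM (median 27.2) against 0.678 to 3.01 CPM (median 1.45), a log2 difference of 4.15 (SE 0.210). The keratin genes Krt18 and Krt8 differed by 2.59 (SE 0.181) and 2.41, and Cldn9 by 3.01. Cldn1 differed by 1.67 (SE 0.209). The listed claudin gene Cldn3 did not pass the low count filter, with at most 17 counts in any library.

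**Figure D2:**
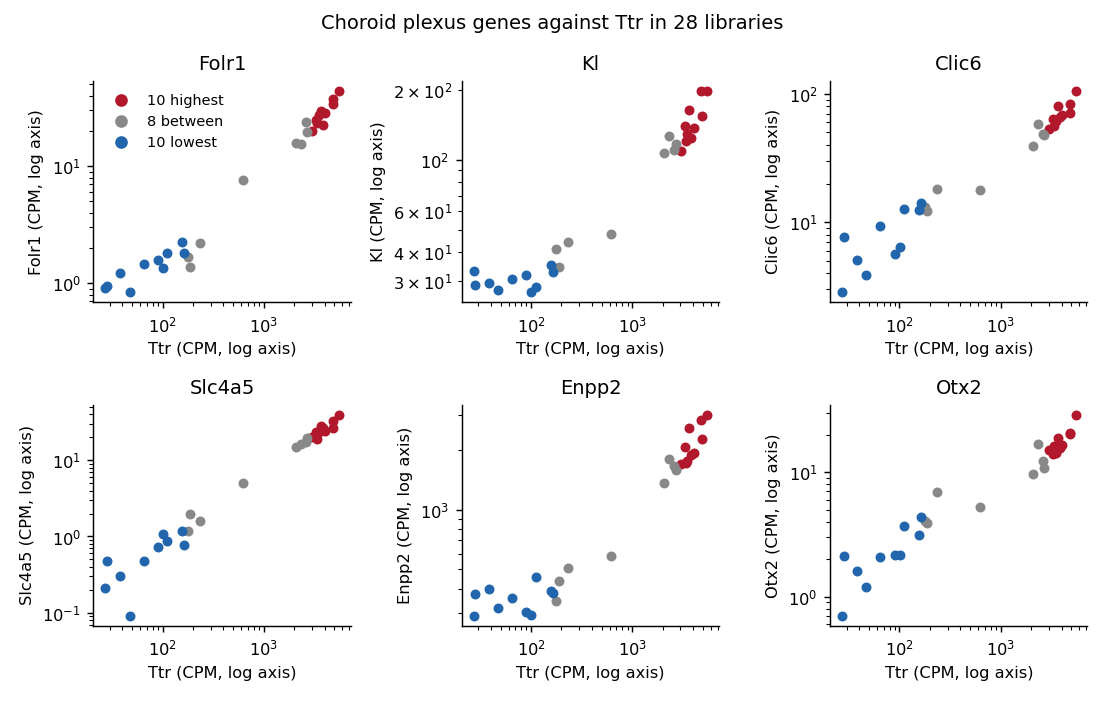
Levels of Folr1, Kl, Clic6, Slc4a5, Enpp2 and Otx2 against Ttr in the 28 libraries, in CPM on log axes; each point is a library and its colour gives the class. The 10 highest and the 10 lowest libraries do not overlap in any of the 6 genes, and Kl and Enpp2 flatten out in the low libraries near 30 and 350 CPM.

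The genes whose log2 levels followed Ttr most closely over the 28 libraries were Kcne2 (Pearson's r 0.993), F5 (0.992) and Aqp1 (0.989). Tmem72, Slc4a5, Folr1, Oca2, Cldn2, 1500015O10Rik and Clic6 came next, down to an r of 0.976. An r of at least 0.9 was reached by 74 genes, of which 32 were on the epithelium lists. These values describe 28 libraries that fall into a high and a low cluster, and the points share each library's depth and composition. Within the high class there were, for every 1000 Ttr counts, 4.35 to 5.34 counts of Kcne2 and 5.81 to 8.08 counts of Folr1. The range was wider for F5, at 11.7 to 19.4 counts, and for Prlr, at 11.3 to 23.4.

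Members differed in how much of their level remained where Ttr was low. A straight line of a gene's CPM on Ttr CPM over the 28 libraries left 0.292 CPM of Slc4a5 at a Ttr of 0, which is 1.11% of its mean level in the high libraries. For Folr1 the remaining share was 2.53%, for Clic6 11.3%, for Otx2 13.6%, for Enpp2 15.5% and for Kl 20.8%, or 30.6 CPM. It was 41.8% for Trpm3, 63.5% for Htr2c and 93.3% for Cst3. The list thus ran from genes found almost wholly where Ttr was found to genes with most of their level elsewhere.

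Of the 737 genes that were higher, 644 were on no list. Among genes whose mean log2 CPM was 0 or more, the largest rise was that of Tmem72, which encodes a transmembrane protein (chromosome 6, 116691539 to 116716982). It was at 18.1 to 46.2 CPM in the high libraries (median 25.2) and at 0.226 to 1.24 CPM in the low ones (median 0.610), a log2 difference of 5.50 (SE 0.240). The next in order were Slc4a5, Kcne2, Aqp1, Folr1, Cldn2, Steap1, F5, Kcnj13 and 1500015O10Rik. Of the 10 largest rises, 9 were thus members of the epithelium lists. Oca2, a melanosomal transporter gene, was at 3.14 to 7.62 CPM (median 5.18) against 0.212 to 0.692 CPM (median 0.358), and the short-chain collagen gene Col8a1 at 21.6 to 38.2 CPM (median 27.2) against 1.05 to 4.03 CPM (median 2.13); neither was on a list.

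Genes of retinoid and thyroid hormone handling, the cargo of transthyretin, were higher in 4 of 18 tested members, with a list median of 0.16. They included Rdh5, described above, and Slco1c1, a transporter gene of thyroxine at the blood-brain barrier. Both are on the epithelium lists too and were counted there. Slco1c1 was at 92.9 to 142 CPM in the high libraries (median 106) and at 68.9 to 93.0 CPM in the low ones (median 81.2). The classes overlapped narrowly, with a log2 difference of 0.44 (SE 0.0742; adjusted p = 0.000431 by edgeR). In the insulin-like growth factor list 3 of 12 members were higher, Igf2, Igfbp2 and Igfbp7 (0.75, SE 0.168), and the list median was 0.03. Igf2 and Igfbp2 are on the epithelium lists too. Over all genes, 4.5% were higher.

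**Figure D3:**
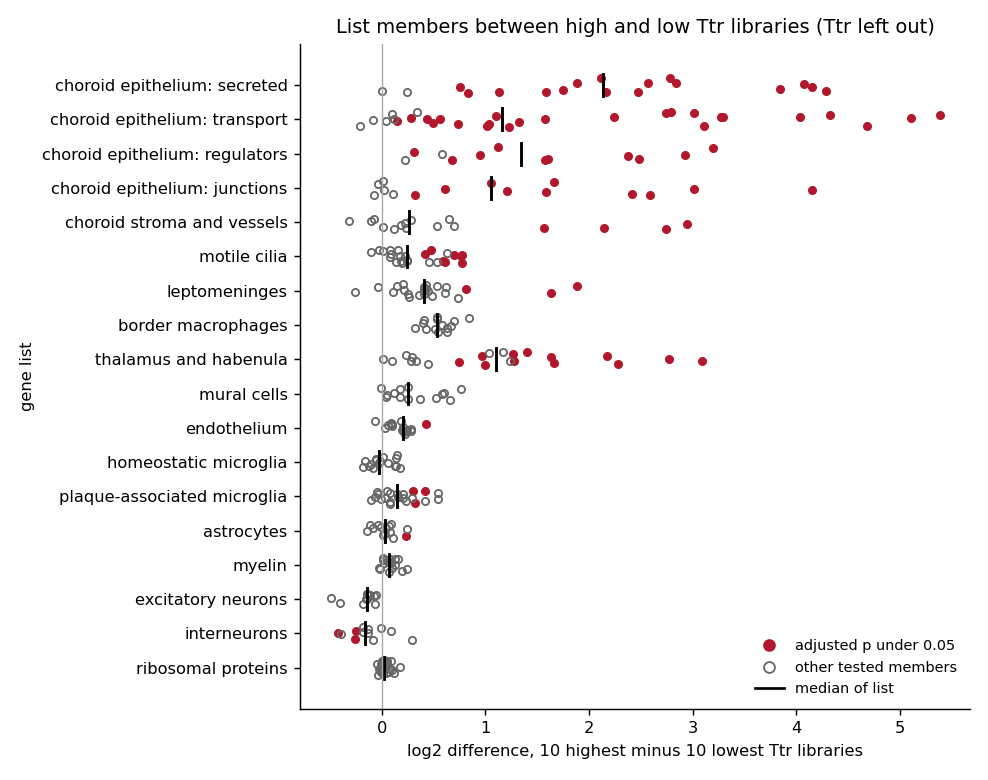
Log2 difference between the 10 highest and 10 lowest Ttr libraries for the tested members of 18 gene lists; filled points passed an adjusted p of 0.05, open points did not, and the bar is the list median. The 4 epithelium lists have medians of 1.06 to 2.14 and the thalamus list 1.10, while the ribosomal protein list sits at 0.02.

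Other cells of the choroid plexus and its surroundings were represented unevenly. The stromal and vascular list of the plexus had 4 of 16 tested members higher, and their median was 0.26. They were the basement membrane collagens Col4a3 (log2 2.75, SE 0.186) and Col4a4 (2.15, SE 0.155), the dipeptidase gene Dpep1 (2.95, SE 0.252) and the endothelial gene Esm1 (1.57, SE 0.307), and each separated the classes. Its fibroblast collagens Col1a1, Col1a2 and Col3a1 had positive differences of 0.53, 0.70 and 0.65 that were not past the threshold. Leptomeningeal genes were higher in 3 of 24 members, Igf2, Bmp6 (0.81, SE 0.174) and Zic1 (1.64, SE 0.360), with 22 of 24 differences above 0 and a median of 0.41. Igf2 is on an epithelium list as well. Without the 8 libraries with thalamic transcripts that are described after the cilia genes, 0 of the 24 passed and the median was -0.59, and Zic1 differed by -0.15. The 14 border macrophage genes all had differences above 0, with a median of 0.54, and 0 passed the threshold. Without the same 8 libraries their median was -0.28, and with a thalamus score as covariate it was -0.09. In 14 against 14 libraries without those 8 the medians were 0.02 for the leptomeningeal and 0.12 for the macrophage list. The level of that list ran from -0.61 to 1.15 in the high and from -0.77 to 0.49 in the low libraries, as the mean log2 deviation from all libraries. The endothelial list had 1 of 18 members higher, the tight junction gene Ocln (0.43, SE 0.0777), and the mural cell list 0 of 14, where 4.5% of all genes were higher. The part of meningeal, macrophage and vascular cells in the other differences was not tested.

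Motile cilia genes, which ependymal cells and the choroid plexus both use, were higher in 8 of 25 tested members, with a median of 0.24 and 0 that separated the classes. Over all genes, 4.5% were higher and 1.17% lay higher without overlap. Wdr16 was at 5.13 to 8.56 CPM in the high libraries (median 6.06) and at 2.44 to 5.20 CPM in the low ones (median 3.65), which is 0.76 higher on the log2 scale (SE 0.131, edgeR adjusted p = 0.000517). Mlf1 differed by 0.78 (SE 0.143, adjusted p = 0.00114), 1700009P17Rik by 0.77 (SE 0.142, adjusted p = 0.00108) and Rsph1, a radial spoke head gene, by 0.59 (SE 0.119, adjusted p = 0.00291). The classes overlapped in each of these genes. None of the 25 was past the threshold once 8 libraries with thalamic transcripts, described next, were left out, which left 3 high against 10 low libraries. The median of the 25 was then 0.23, little changed. It was 0.20 with a thalamus score as covariate and 0.04 in 14 against 14 libraries without those 8.

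Genes of the thalamus and habenula, which border the hippocampus, were higher in 12 of 22 tested members, and all 22 differences were above 0, with a median of 1.10. The share of higher genes over all genes was 4.5%. Tcf7l2, the transcription factor of thalamic and habenular neurons (chromosome 19, 55741797 to 55933659), was at 3.90 to 48.2 CPM in the high libraries (median 21.7) and at 4.21 to 5.35 CPM in the low ones (median 4.66). The classes differed by 2.17 on the log2 scale (SE 0.357, edgeR adjusted p = 0.000307) and overlapped. The level was split inside the high class. It was 18.1, 21.1, 22.2, 30.5, 34.4, 38.3 and 48.2 CPM in 7 high libraries and 3.90, 3.96 and 4.54 CPM in the other 3, which lay at the level of the low libraries. A further library above 10 CPM, 3xTg VehD replicate 1 at 41.6 CPM, was in neither class, and the next highest of the 28 was at 8.35 CPM.

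Other thalamic genes had the same 7 libraries at the top of the high class. Prkcd, a protein kinase C gene of thalamic relay neurons, ran from 24.5 to 281 CPM in the high (median 70.8) and from 17.7 to 33.8 CPM in the low libraries (median 26.3). The classes differed by 1.67 on the log2 scale (SE 0.327, edgeR adjusted p = 0.00215). Tnnt1 (2.28, SE 0.420, adjusted p = 0.00114) and Synpo2 (1.28, SE 0.248, adjusted p = 0.00191) were higher as well. Amotl1 was at a mean of 76.9 ± 34.6 CPM against 37.2 ± 4.04 (SD, n = 10 each; edgeR adjusted p = 0.000200). Gbx2, a homeobox gene of the developing and adult thalamus, had a median of 0.305 CPM in the high and 0.0476 CPM in the low libraries.

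The comparison was repeated without the 8 libraries above 10 CPM of Tcf7l2, an alternative chosen after the data were seen that left 3 high and 10 low libraries. It called 184 genes, 184 higher and 0 lower, of which 181 were among the 978. Epithelium members still numbered 45 of 75, while 0 thalamic and 0 cilia members passed. Tcf7l2, itself on the thalamus list, chose the libraries left out. The thalamic count and the Tcf7l2 difference of this fit are therefore no test of the thalamic genes. Folr1 differed by 4.18 (SE 0.203), Kl by 2.14 (SE 0.0766), Clic6 by 2.93 (SE 0.339) and Slc4a5 by 5.17 (SE 0.338), and Tcf7l2 by -0.21. With all 20 libraries and a thalamus score as covariate, 264 genes were called, 262 higher and 2 lower, with 50 epithelium members, 1 thalamic and 0 cilia members. The score is the mean of the tested thalamus members themselves, so that their count in this fit is no test of them either. Setting the 14 highest against the 14 lowest without the same 8 libraries left 6 and 14 and called 256 genes, 255 higher and 1 lower, of which 253 were among the 978, with 49 epithelium members.

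**Figure D4:**
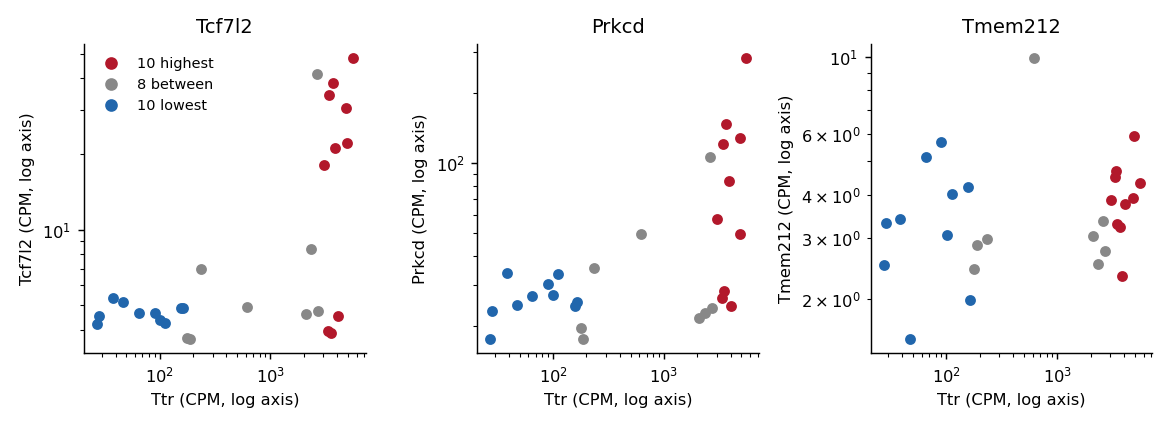
Tcf7l2, Prkcd and Tmem212 against Ttr in the 28 libraries, in CPM on log axes; colour gives the class. Tcf7l2 splits the libraries above 2000 CPM of Ttr into 8 above 10 CPM and 6 below, and the cilia gene Tmem212 is highest, at 9.91 CPM, in 3xTg DQ replicate 2.

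The genes that were lower in the high Ttr libraries changed little, with a median of -0.17 on the log2 scale over the 241. By the same limit on the mean level, the largest falls were those of Alox12b (-0.46, SE 0.119), a lipoxygenase gene, and Meis2 (-0.44, SE 0.0954), a homeobox gene. Meis2 was at 41.5 to 68.3 CPM in the high libraries (median 53.3) and at 48.8 to 85.2 CPM in the low ones (median 69.1), and the classes overlapped. Vip, the vasoactive intestinal peptide of a class of interneurons, was at 18.1 to 32.5 CPM (median 25.8) against 25.1 to 40.3 CPM (median 34.3). The classes differed by -0.42 on the log2 scale (SE 0.0976, edgeR adjusted p = 0.00964). Homer1, a postsynaptic scaffold gene, differed by -0.34 (SE 0.0777), the delta opioid receptor gene Oprd1 by -0.33 (SE 0.0650) and Foxp1, a forkhead factor of pyramidal and striatal neurons, by -0.31 (SE 0.0709). 3110035E14Rik (-0.39), Gpr83 (-0.33), 4933412E12Rik (-0.33) and the neuroserpin gene Serpini1 (-0.31) made up the rest of the 10. All 10 overlapped between the classes. Without the 8 libraries above 10 CPM of Tcf7l2, 0 of the 10 passed the threshold in 3 high against 10 low libraries: Vip then differed by -0.18, Meis2 by -0.33, Foxp1 by -0.10 and Homer1 by -0.24.

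Neuronal lists moved little. Interneuron genes were lower in 3 of 12 tested members, Vip, Cnr1 (-0.26, SE 0.0608) and Lhx6 (-0.24, SE 0.0698), with a median of -0.16, where 1.47% of all genes were lower. Without the 8 libraries above 10 CPM of Tcf7l2, 0 of the 12 passed and the median was -0.08. In 14 against 14 libraries without them the median was -0.02, with Vip at 0.015 and Lhx6 at 0.00056. Excitatory neuron genes had 0 of 12 past the threshold, with all 12 differences below 0 and a median of -0.14. Their median was -0.03 without the 8 libraries and -0.05 with a thalamus score as covariate. In 14 against 14 libraries without those 8 it was -0.05. The hippocampal lists had medians of 0.04 for 10 dentate gyrus genes and -0.03 for 14 CA field genes, and 0 of these passed. Immediate early genes were lower in 2 of 18, Homer1 and Egr3, and in 0 of 18 without the 8 libraries.

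Glial, interferon and ribosomal protein lists had medians of 0.15 or less between the classes, against -0.01 over all genes. Of all genes, 4.5% were higher. The homeostatic microglia list had 0 of 16 members past the threshold and a median of -0.02. Without the 8 libraries above 10 CPM of Tcf7l2 its median was 0.13. In the list of microglia near plaques 3 of 22 were higher, the tetraspanin genes Cd63 (0.42, SE 0.0501) and Cd9 (0.32, SE 0.0717) and the cathepsin gene Ctsd (0.31, SE 0.0695), with a median of 0.15. Cd9 is on the epithelium list too. The median of the list of microglia near plaques was 0.40 without the same 8 libraries and 0.33 with a thalamus score as covariate. In each of these fits 2 of the 22 were higher. In 14 against 14 libraries without those 8 the median was 0.14. Astrocyte genes were higher in 1 of 14, Aqp4 (0.23, SE 0.0680), which was not past the threshold without the 8 libraries, and myelin genes in 0 of 16. Interferon genes were higher in 2 of 22, Bst2 (1.01, SE 0.172) and Ifitm3 (0.54, SE 0.142), with a median of 0.02. Ribosomal protein genes had 0 of 30 past the threshold.

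Whether the difference between the classes varied with genotype was tested as an interaction, and 1 of 16368 genes (0.00611%) passed, with 1431 at an unadjusted p under 0.05. That gene was Chrm5, a muscarinic acetylcholine receptor gene. In 3xTg it was at 2.12 to 2.98 CPM in the 5 high libraries and at 4.14 to 7.26 CPM in the 6 low ones. In WT it was at 3.36 to 4.98 CPM in the 5 high libraries and at 2.40 to 2.92 CPM in the 4 low ones. The classes did not overlap in either genotype and their order was opposite, with an interaction of -1.69 on the log2 scale (edgeR adjusted p = 0.00172). No member of the epithelium lists passed this test. Treatment was not in the fit. Within 3xTg the high class held 0 DQ and 2 VehN libraries, and the low class 2 DQ and 0 VehN. The part of treatment in the Chrm5 difference was not tested.

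The 8 libraries between the classes entered neither class, although the same ranking by Ttr placed them there. In them a slope on log2 Ttr CPM was fitted with genotype as a covariate, so that a slope of 1 means that a gene doubles when Ttr doubles. Of all genes, 20 (0.122%) had a positive slope past the threshold and 12 (0.0733%) a negative one. Among the 75 epithelium members 17 were past the threshold, all with positive slopes, and 63 of 75 slopes were above 0, against 50.3% of all genes. Cldn2 had a slope of 0.96 (SE 0.105, edgeR adjusted p = 0.00716), Aqp1 of 0.96 (SE 0.123, adjusted p = 0.0164), Slc4a5 of 0.89 (SE 0.108, adjusted p = 0.0125) and Kcne2 of 0.81 (SE 0.116, adjusted p = 0.0276). Clic6 had 0.75 (SE 0.0969, adjusted p = 0.0164), Folr1 0.68 (SE 0.110, adjusted p = 0.0498) and Kl 0.62 (SE 0.0749, adjusted p = 0.0125). Of the 60 members that were higher in the high class, 55 had positive slopes, and 19 genes were past the threshold in both fits with the same sign and 0 with opposite signs.

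The calls among these slopes depended on 1 library. The 4 libraries above 2000 CPM among the 8 were all 3xTg and 3 of the other 4 were WT, so that within 3xTg the slope came from 3xTg DQ replicate 2, at 620 CPM, against the rest. Without it, all 3xTg libraries left lay above 2000 CPM and all WT libraries under 250 CPM, and 0 genes were past the threshold, with 52 of 75 epithelium slopes above 0. The median of the 75 slopes was 0.47 without that library and 0.38 with it. That library also stood out in motile cilia genes: Tmem212 was at 9.91 CPM there and at 1.54 to 5.92 CPM in all others. Negative slopes past the threshold included the cilia genes Ak7 (-0.74, SE 0.0797), Hydin (-0.74, SE 0.105) and Tmem212 (-0.85, SE 0.114), and without that library the slopes of Hydin and Tmem212 were 0.47 and 0.31 and that of Ak7 was -0.16. Leaving out 3xTg DQ replicate 4 left 13 genes past the threshold and leaving out 3xTg VehN replicate 4 left 17.

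The comparisons of the study were taken next, over all 28 libraries, to see what the Ttr levels did in groups set by the labels. Ttr did not pass the threshold in any of 6 comparisons, and its standard errors were 1.38 to 1.57 on the log2 scale. The difference was 0.47 for 3xTg against WT with vehicle, -0.96 for NAVI against VehN and -1.05 for DQ against VehD in 3xTg, -0.93 for NAVI and 0.30 for DQ against Veh in WT, and 0.85 for VehN against VehD. With this spread between libraries, differences of this size were not detectable in groups of 4.

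The median of the epithelium members had the sign of Ttr in each comparison. As 60 of the 75 members were higher in the high Ttr libraries, this agreement could be expected and is no test. The median log2 difference of the members was 0.32, -0.60, -0.36, -0.38, 0.18 and 0.55 in the same order. The median of all genes lay between -0.01 and 0.01. Between 3xTg and WT with vehicle 4 of 75 members passed the threshold, where 5.68% of all genes were higher and 7.4% lower. They were Trf (0.89, SE 0.196) and Cd9 (0.69, SE 0.135), which were higher in 3xTg, and Slc5a5, an iodide transporter gene (-0.98, SE 0.315), and Prom1, which encodes prominin 1 (-0.39, SE 0.102), which were lower. None of these 4 separated the high from the low Ttr libraries. In the 5 comparisons of drugs and vehicles 0 members passed. Over all genes these comparisons called 0, 0, 0, 1 (0.00611%) and 0 genes, with 4758, 299, 1267, 554 and 807 at an unadjusted p under 0.05. The count for NAVI against VehN in 3xTg depended on the fit: it was 1953 with DESeq2, 2317 with the replicate number as a block and 2542 without the libraries above 10 CPM of Tcf7l2.

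**Figure D5:**
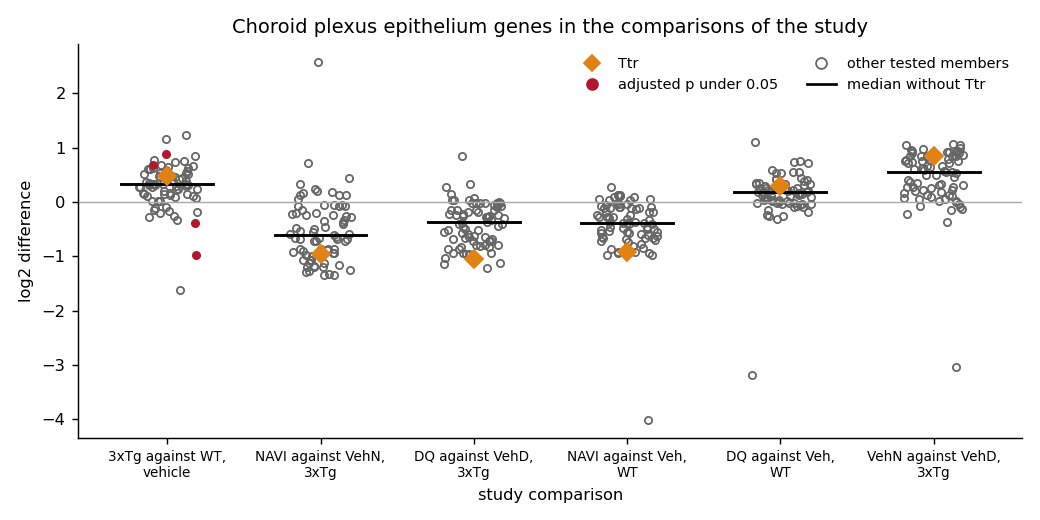
Log2 difference of the 75 epithelium members (circles; red where the adjusted p was under 0.05), of Ttr (diamond) and the median of the 75 (bar) in the 6 comparisons of the study. The median takes the sign of Ttr in every comparison, from -0.60 for NAVI against VehN in 3xTg to 0.55 for VehN against VehD. Most members were higher in the high Ttr libraries, so this agreement is no test.

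When log2 Ttr CPM was added to the fit as a covariate, the medians of the epithelium members moved to 0.16, -0.07, -0.18, -0.07, 0.05 and -0.06. As most members went with Ttr, this shift is likewise a description. The number of genes past the threshold for 3xTg against WT with vehicle went from 2142 to 2538, of which 2115 were the same genes. For NAVI against VehN in 3xTg it went from 0 to 1165, with 5710 genes at an unadjusted p under 0.05 after 4758 before. Without the covariate, leaving out single libraries already gave 0 to 3659 genes in that comparison, 3659 without 3xTg VehN replicate 1. Of the 4 VehN libraries 2 were in the high class and 2 lay between the classes, and of the NAVI libraries 2 were in the high and 2 in the low class. The other comparisons called 0, 0, 1 and 0 genes with the covariate, as without it.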

How the data were processed

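Counts per gene symbol were deposited by the authors as 1 table with 1 column per library, raw and not pooled, and 0 columns were left unused. The submitters' processing notes name STAR, Subread, featureCounts and the build mm10; annotation, strand setting and multi-mapping rule were not given in the sources used here, which makes counts of overlapping genes and close copies uncertain. Groups came from the labels, which name no batch.

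Genes were tested with edgeR 4.0.16 (R 4.3.3), quasi-likelihood, on the deposited counts, with TMM normalization and the filterByExpr filter over 7 groups (7693 genes removed). P-values were two-sided and Benjamini-Hochberg adjusted over all genes tested, with a threshold of 0.05. The standard error is the absolute log2 difference over the square root of F. Printed CPM use column sums. List scores use a prior count of 2. Fits of the classes, of the 8 libraries between them and of genotype with vehicle were run on simulated counts in which genes varied independently. Those counts had no shared tissue composition and no classes chosen by a gene's rank, so they cannot speak to these features. The members and all gene lists were chosen with earlier results of these data known, so no pattern is independent support.

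Named genes are the 4 markers, the 10 largest rises and falls (mean log2 CPM 0 or more), up to 4 members per list described by smallest p, the 10 genes most correlated with Ttr, and epithelium members past the threshold in a study comparison; other genes were named after their values were seen. Alternatives were other normalizations, filters, covariates, class sizes and rankings, DESeq2 1.42.0, limma-voom (limma 3.58.1), single genotypes and leaving out each library. No 2 libraries of a group matched within counting error (lowest chi-square per degree of freedom 12.3). Positions come from RefSeq of the same build. Values of 2 genes on the lists are not reported here.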

Additional observations from a re-analysis of the deposited data

Results flagged for a closer look

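Of 72 sets of values examined for a library far from the rest, 6 had such a gap, and chance alone gives about 1 in 20. In 4 of them the library was WT NAVI replicate 2, whose Ttr of 3313 CPM lay far above the next highest of its group at 188 CPM. The same library had Folr1 at 24.6 CPM against 1.81 CPM for the next, Kl at 139.9 CPM against 41.1 CPM, and Clic6 at 63.3 CPM against 13.1 CPM. Its Tcf7l2 was 3.96 CPM, at the level of the low Ttr libraries. Among the low libraries, Steap1 was highest at 0.577 CPM in 3xTg DQ replicate 3, with the next at 0.345 CPM, and Foxp1 was lowest at 71.1 CPM in WT DQ replicate 3, with the next at 83.2 CPM.

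The difference between high and low Ttr libraries in Chrm5 had opposite signs in the genotypes, by the interaction term of -1.69 on the log2 scale (edgeR adjusted p = 0.00172).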

How the results depend on the processing

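Between the classes, 44 to 62 epithelium members passed under every alternative, against 60, and Folr1, Kl and Clic6 were higher in the high libraries in each alternative run for them. The other counts depended on the choice of libraries and covariates, and the causes were not tested. Against 978 genes (737 higher and 241 lower), 12 thalamus and 8 cilia members, treatment group as covariate gave 441 genes (423 and 18), 3 thalamus and 5 cilia members. A thalamus score as covariate gave 264 (262 and 2), with 1 thalamus and 0 cilia members and a Gbx2 difference of -0.19. As the score was built from the thalamus members, their values there are no test of them. WT libraries alone, fewer samples, gave 153 (150 and 3), with 0 thalamus and 0 cilia members. The GC trend as covariate gave 2308 genes, 1270 of them lower. The 7 highest against the 7 lowest gave 599 (57 lower), with 4 cilia members. Cilia members numbered 3 with the 14 highest against the 14 lowest and 5 in 3xTg libraries alone. The number of lower genes was 113 with upper-quartile normalization, 464 with DESeq2, 140 with no low count filter, 140 with no covariate, 110 with 5 against 5 libraries, 118 with 14 against 14, 151 with log2 Ttr as a number and 377 with 3 classes in 1 fit. Cst3, with a difference near 0, was -0.0051 with limma-voom, -0.019 with no covariate, -0.013 with treatment group, -0.047 with the GC trend and -0.094 in WT alone.

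Without the libraries above 10 CPM of Tcf7l2, chosen after the data were seen, 184 genes (184 higher, 0 lower), 0 thalamus and 0 cilia members passed, and differences turned to -0.15 for Zic1, -0.21 for Tcf7l2, -0.031 for Tnnt1, -0.045 for Synpo2 and -1.24 for Gbx2. Because a thalamic gene chose the libraries, the thalamic values of this fit and of the next are no test of these genes. In 14 against 14 without them, 256 (255 and 1), 0 thalamus and 0 cilia members passed, with Vip at 0.015, Zic1 at -0.36, Tnnt1 at -0.0019, Synpo2 at -0.051, Lhx6 at 0.00056, Gbx2 at -1.19 and Aqp4 at -0.0032. In the study comparisons without them, 5184 genes and 8 epithelium members passed for 3xTg against WT with vehicle and 2542 genes and 3 members for NAVI against VehN in 3xTg. Ttr then differed by -2.48 for 3xTg against WT, 4.995 for DQ against VehD in 3xTg and -3.05 for DQ in WT. None of these passed the threshold (edgeR adjusted p = 0.24, 0.74 and 0.83). The groups had lost 3xTg NAVI replicate 1, 3xTg VehN replicates 1 and 2, 3xTg VehD 1 and 4, WT DQ 1 and 4 and WT Veh 2.

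In the 8 libraries between the classes, no covariate gave 297 genes (73 negative) and 41 epithelium members, with Ak7 at 0.0081, and no low count filter gave 21 negative genes. For NAVI against VehN in 3xTg, DESeq2 called 1953 genes and 2 epithelium members, and log2 Ttr as covariate 1165 genes and 1 member; that covariate gave 10 members for 3xTg against WT. DESeq2 called 3 genes for NAVI in WT, 4 for DQ in WT and 2 for VehN against VehD.

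Leaving out 1 library at a time gave 92 to 434 lower genes between the classes. The count moved by over 1.5 times without 3xTg DQ replicate 3 (118), NAVI 1 (147) and 4 (434), VehN 1 (92), VehD 2 (119), 3 (136) and 4 (143), and WT Veh 3 (126) and 4 (152). Cst3 ran from -0.057 to 0.039. Among the 8, counts ran from 0 to 42 genes, 0 to 22 negative genes and 0 to 19 epithelium members, lowest without 3xTg DQ replicate 2. Counts were 13, 3 and 9 without 3xTg DQ 4, and 17, 5 and 11 without 3xTg VehN 4, and 22 negative genes without WT DQ 2. Slopes ran from -1.13 to 0.034 for Col6a3, -0.71 to 0.27 for Cdhr3, -0.051 to 0.82 for Prlr, -0.89 to 0.15 for 4930451C15Rik, -0.92 to 0.031 for Glp1r, -0.90 to 0.31 for Tmem212 and -0.79 to 0.47 for Hydin. For 3xTg against WT with vehicle, 890 to 3450 genes and 2 to 5 members passed (3450 without 3xTg VehN 1, 1387 without VehD 3, 970 and 2 members without WT Veh 1, 890 without WT Veh 4), and Ttr ran from -0.066 to 1.22. For NAVI against VehN in 3xTg it was 0 to 3659 genes and 0 to 2 members (836 without NAVI 1, 2863 without NAVI 2, 3659 without VehN 1, 234 without VehN 4). For VehN against VehD it was 0 to 1 genes, for NAVI in WT 0 to 1 and for DQ in WT 1 to 5. Ttr ran from -2.70 to 0.028 for DQ in 3xTg and from -0.38 to 1.05 for DQ in WT.

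The replicate number was tried as a block, although the labels share only a number: over 84 pairs of same-numbered libraries the deviations correlated by 0.030 on average (-0.40 to 0.46), and 9 of 28 libraries were closest to their own number. With the block, 848 genes (676 and 172), 57 epithelium, 10 thalamus and 7 cilia members differed between the classes. In the study comparisons the block gave 3283 genes for 3xTg against WT and 2317 genes and 2 members for NAVI against VehN.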
